A study of Homo sapiens with 8 samples.

Results

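The T47D breast cancer HIF-1β binding programme is described here as the 2065 regions of the genome at which peaks of both T47D replicates overlapped by at least 1 bp. Sites of 3 other cancer lines, built in the same way, numbered 970 in PC-3, 1041 in A549 and 1757 in HCT-116 cells, and together the sites of the 4 lines covered 3840 merged regions. HIF-1β was immunoprecipitated with the DNA bound to it, and the DNA was sequenced (ChIP-seq), in 8 libraries from T47D (breast), PC-3 (prostate), A549 (lung) and HCT-116 (colorectal) cells, 2 of each line. All 8 libraries came from cells kept for 16 h at 0.5% ambient oxygen, and the same antibody to HIF-1β was used throughout. Normoxic cells and control chromatin were not analysed here, so the lists show where HIF-1β was found in hypoxic cells and not what hypoxia added. T47D is an established line of luminal type from a ductal carcinoma that carries oestrogen and progesterone receptors, and each line stands for its tumour type alone. The sources used here do not say whether the replicates came from separate cultures, so the spread between replicates may be technical. The p-values below treat all 8 libraries as independent, although 2 come from each line. They mix the spread between lines with that between replicates, and no test took the line as its unit.

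HIF-1β, encoded by ARNT, is the constitutive partner of the oxygen-regulated HIF-1α and HIF-2α subunits. In well oxygenated cells prolyl hydroxylases of the EGLN family mark the α subunits for capture by VHL and destruction, and in hypoxia the spared α subunits join HIF-1β and bind short motifs with the core ACGTG or GCGTG. HIF-1β also pairs with the aryl hydrocarbon receptor AHR, whose motif includes GCGTG, so a copy of GCGTG alone cannot tell AHR from HIF. Classical targets raise glucose uptake and glycolysis, export lactate, restrain mitochondrial oxidation, and signal to vessels and red cell precursors.

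T47D replicate 1 held 3061 peaks and replicate 2 held 2910, of which 2070 and 2076 lay in the sites. The score of a peak, which the caller gives and whose unit the files do not explain, started at 50 in every library. Peaks inside sites had a median score of 107 in replicate 1 and 113 in replicate 2, against 61.6 and 61.9 for the 991 and 834 peaks found in a single replicate. Each site was ranked by the mean of its ranks in both replicates, from 1 for the strongest. Across the 2065 sites the scores of the replicates had a Spearman correlation of 0.74, a description over sites that share the same pair of libraries. The smallest overlap among the sites was 512 bp, near REL, with scores of 57.43 and 64.29, and the closest pair that did not overlap, near C1orf127, lay 36 bp apart with scores of 50.21 and 78.87. A total of 3 sites lay on sequences outside the main chromosomes and have no gene or motif below.

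**Figure D1:**
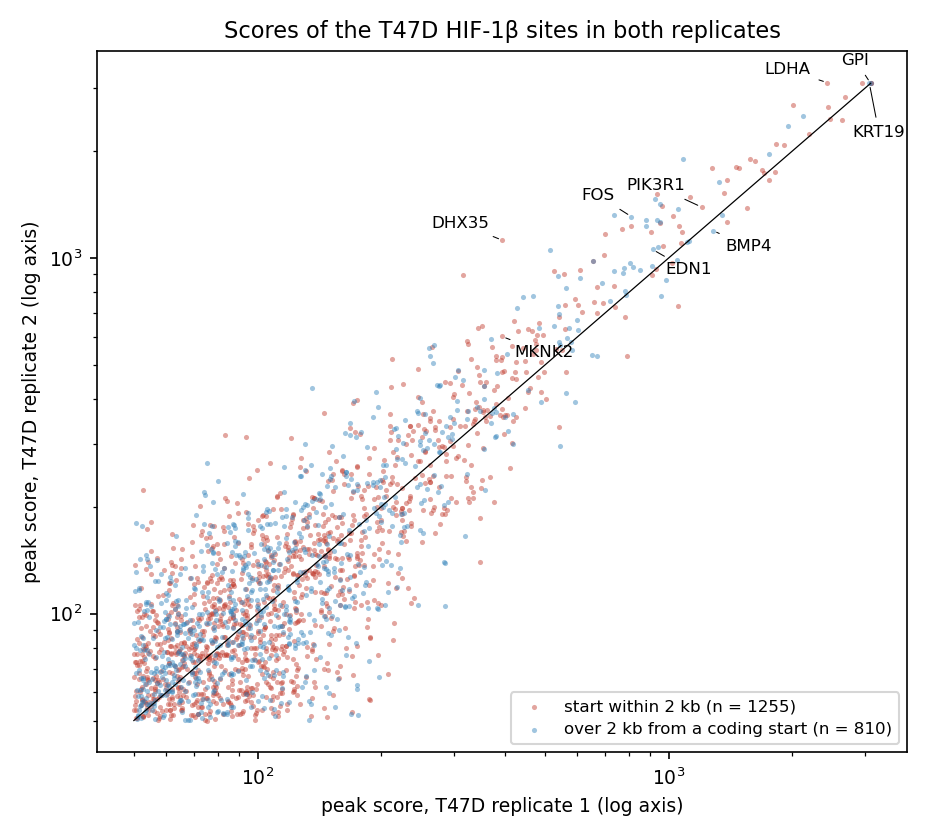
Each point is a T47D site, plotted by its peak score in replicate 1 (x axis) and replicate 2 (y axis), both on log axes, with the line of equal scores. Red points lie within 2 kb of a coding transcription start and blue points do not. GPI and KRT19 stand at the upper right end, and DHX35, with scores of 394.13 and 1121.55, lies off the line.

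The sequences that carry these sites are shown first, as 61 bases around the copy of the core nearest to the centre of the site that lies outside annotated exons, 5′ to 3′ on the strand that reads ACGTG or GCGTG, with the core in capitals (GRCh37). The first 3 are among the 12 strongest T47D sites and were sites in all 4 lines, the next is the strongest that was a site in no other line, and the last 4 come from sites with no peak in any of the other 6 libraries.
HIF1A 3′ flank, chr14:62217862-62217922, plus strand, intergenic: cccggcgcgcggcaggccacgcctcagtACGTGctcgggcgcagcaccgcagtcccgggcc
GPI promoter, chr19:34850313-34850373, plus strand, intergenic: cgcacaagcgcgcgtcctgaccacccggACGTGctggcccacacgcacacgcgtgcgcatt
LDHA promoter, chr11:18415995-18416055, minus strand, intergenic: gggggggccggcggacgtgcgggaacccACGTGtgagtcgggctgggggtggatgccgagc
KRT19 upstream, chr17:39692603-39692663, minus strand, intergenic: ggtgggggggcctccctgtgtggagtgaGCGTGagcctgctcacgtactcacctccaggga
PIK3R1 promoter, chr5:67584625-67584685, plus strand, intron: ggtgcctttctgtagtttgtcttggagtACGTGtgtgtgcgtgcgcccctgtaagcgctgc
BMP4 distal, chr14:54405331-54405391, minus strand, intergenic: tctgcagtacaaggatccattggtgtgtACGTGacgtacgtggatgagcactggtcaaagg
STMND1 distal, chr6:16986307-16986367, minus strand, intergenic: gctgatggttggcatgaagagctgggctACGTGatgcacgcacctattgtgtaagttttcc
SHANK2 intronic, chr11:70453308-70453368, minus strand, intron: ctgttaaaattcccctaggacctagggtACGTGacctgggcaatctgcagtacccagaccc
Counted along the chromosome, the printed copy lay at -12 bp from the centre of the site in the HIF1A flank, -31 bp at GPI, 34 bp at LDHA, -15 bp at BMP4, -45 bp at STMND1 and -6 bp at SHANK2. At PIK3R1 it lay farther off, at 313 bp, and at KRT19 at -928 bp.

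Of the 12 highest-ranked T47D sites, 5 were nearest to genes of the glycolysis list and 2 to genes of the oxygen sensing list described below. Of these 12, 9 were at a coding promoter, 11 were also sites in all 4 lines, and all 12 held at least 1 copy of the core. The first place was shared by 3 sites with a score of 3100 in both replicates. The first covered the promoter of GPI, the second enzyme of glycolysis, which also ranked 1 in A549 and HCT-116 cells and 2 in PC-3 cells. The second lay at ANKRD37, a small ankyrin repeat gene known as a direct HIF target, ranked 1 in PC-3 and HCT-116 and 23 in A549 cells. The third, chr14:62217140-62218668, was intergenic, 2163 bp past the end of HIF1A, the gene of the HIF-1α subunit itself, and 10470 bp from the nearest coding start, that of SNAPC1.

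KRT19, a keratin of luminal and simple epithelia, was nearest to the site of rank 4, with scores of 3077.96 and 3100. It spanned 5354 bp (chr17:39690884-39696237), 6324 bp upstream of the KRT19 start, and held 7 copies of the core over its length but none in its central 200 bp. PC-3, A549 and HCT-116 cells had no site there, although PC-3 replicate 2 had an overlapping peak. The other sites among the 12 covered starts of ENO1 (scores 2956.87 and 3100), LDHA (2432.86 and 3113.8), ALDOA (2439.78 and 2651.98) and PGAM1 (2466.64 and 2453.32), which act in glycolysis or turn its end product into lactate. PDK1, the kinase that shuts off pyruvate dehydrogenase, had scores of 2011.4 and 2690.65, and NARF, a nuclear protein that binds prelamin A, 2687.05 and 2844.39. FAM174B, a gene of little known function, had scores of 2640.6 and 2448.51. EGLN3, a prolyl hydroxylase that marks HIF-α for destruction, completed the 12 with a site in its own intron, 11511 bp from the nearest start, and scores of 2125.36 and 2500.75. The replicates gave neighbours in this order different places: LDHA had the highest score of replicate 2 but stood below NARF, FAM174B and PGAM1 in replicate 1.

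Lists of genes were compared by how many members had a coding start within 25 kb of a site. Over all 19748 coding genes this held for 13.3% with T47D sites, 5.58% with PC-3, 4.60% with A549 and 11.9% with HCT-116 sites, and within 2 kb for 7.44%, 2.36%, 1.87% and 6.50%. The lists were chosen with results of these data known, and their counts carry no test.

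Glycolysis and glucose uptake was the list with the highest share. A T47D site lay within 2 kb of a start in 18 of its 20 genes (90%), and 17 genes had a site within 25 kb in PC-3, A549 and HCT-116 cells each. For 14 of the 18 the closest site was among the 206 highest ranked, against 250 of the 2623 coding genes with a site (9.53%). PGK1, which makes the first ATP of glycolysis, ranked 23 (scores 1752.38 and 1655.59), and GAPDH, the step before it, ranked 40 (936.28 and 1518.28). PFKFB4 and PFKFB3, which make the activator of phosphofructokinase, ranked 13 and 18, HK2, a hexokinase, ranked 63 and PKM, the pyruvate kinase gene, 35. SLC2A1, the main glucose transporter, was weaker, at rank 401 (253.17 and 196.09), and ENO2, the enolase of neurons, was the weakest at 1607. The exceptions were PFKM, the muscle phosphofructokinase, and SLC2A3, a glucose transporter. A site of rank 39 lay 34138 bp upstream of the nearest coding start of SLC2A3, inside its annotated gene body.

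Genes that control mitochondrial use of pyruvate and mitochondrial turnover had a T47D site in 5 of 11 cases, the same number as in each of the other lines. LONP1, a mitochondrial protease, ranked 48 (1073.17 and 1099.57), BNIP3L and BNIP3, receptors for mitophagy, ranked 180 and 366, and PDK3 ranked 353. Among genes of lactate export and pH, 3 of 8 had a site in T47D, 1 in PC-3, 4 in A549 and 5 in HCT-116 cells. SLC16A3, the lactate exporter MCT4, ranked 15 (1828.26 and 2091.98). CA9, the carbonic anhydrase used as a hypoxia marker, ranked only 1756 in T47D cells (57.82 and 82.32), against 313 of 1041 in A549 and 415 of 1757 in HCT-116 cells.

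Oxygen sensing genes with a site numbered 4 of 12 in T47D, 3 in PC-3, 4 in A549 and 5 in HCT-116 cells. Those of T47D were EGLN3, ANKRD37, EGLN1 (rank 589) and CITED2 (rank 60), which competes with HIF for its coactivators. JmjC demethylases, oxygen-dependent enzymes that act mostly on histone lysines, had a site in 9 of 21 cases in T47D, 6 in PC-3, 6 in A549 and 7 in HCT-116 cells. KDM4B (1907.11 and 2083.81) and KDM3A (1816.94 and 1747.69) ranked 15 and 18, KDM5B 90 and KDM4C 133, and all 9 lay within 2 kb of a start. KDM2B had a site in T47D cells alone among the lines (rank 1635, 66.23 and 82.86), with a single peak outside them in PC-3 replicate 1.

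Secreted hypoxia factors had a T47D site in 7 of 14 cases, against 4, 7 and 7 in PC-3, A549 and HCT-116 cells. STC2, a secreted glycoprotein hormone, was the strongest at rank 21 (1687.94 and 1768.81). VEGFA, the main angiogenic factor, ranked 320 with 376.47 in replicate 1 and 205.54 in replicate 2, and ADM, a vasodilator peptide, ranked 295 in T47D but 59 in PC-3, 19 in A549 and 26 in HCT-116 cells. EPO, the hormone of red cell production, had a T47D site centred 3279 bp downstream of its start (rank 723, scores 105.63 and 196.34), and none of the other 6 libraries had a peak within 25 kb of EPO. Collagen hydroxylases and lysyl oxidases, which modify and cross-link collagen, had a site in 6 of 11 cases in T47D, 6 in PC-3, 6 in A549 and 7 in HCT-116 cells, led in T47D by P4HA1 (rank 23, 1454.58 and 1807.49). LOX had a peak within 25 kb in both T47D libraries (76.53 and 53.3, rank 1859) and in no other library. LOXL2, a related oxidase, had no T47D site but ranked 213 in PC-3, 66 in A549 and 858 in HCT-116 cells, and LOXL1 had sites in PC-3 and HCT-116 cells alone.

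Transcriptional repressors and clock genes of the bHLH and related families had a T47D site in 5 of 17 cases, against 6, 2 and 7 in PC-3, A549 and HCT-116 cells, led by BHLHE40 at rank 27 (1272.29 and 1790.43). Stress, lipid and mTOR genes had one in 6 of 12 cases, against 6, 6 and 4. DDIT4, an inhibitor of mTOR, ranked 93 at its promoter, and ARRDC4, an arrestin that limits glucose uptake, had a site in T47D cells alone (rank 1816, 75.36 and 57.71). Of 6 AHR target genes, T47D cells had a site at 2, PC-3 at 1, A549 at 1 and HCT-116 cells at 4. AHRR, the repressor of AHR, had a site in HCT-116 cells alone (rank 264 of 1757), and so did CYP1A1 and CYP1A2, neighbouring cytochrome P450 genes that share a site of rank 773, near which T47D replicate 1 had a single peak. CYP1B1, an oestradiol hydroxylase, ranked 72 with 1054.14 and 732.05, against ranks of 910 of 970, 678 of 1041 and 748 of 1757 in PC-3, A549 and HCT-116 cells. TIPARP, an ADP-ribosyltransferase that represses AHR, ranked 1275 and had no peak nearby in the other lines.

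**Figure D2:**
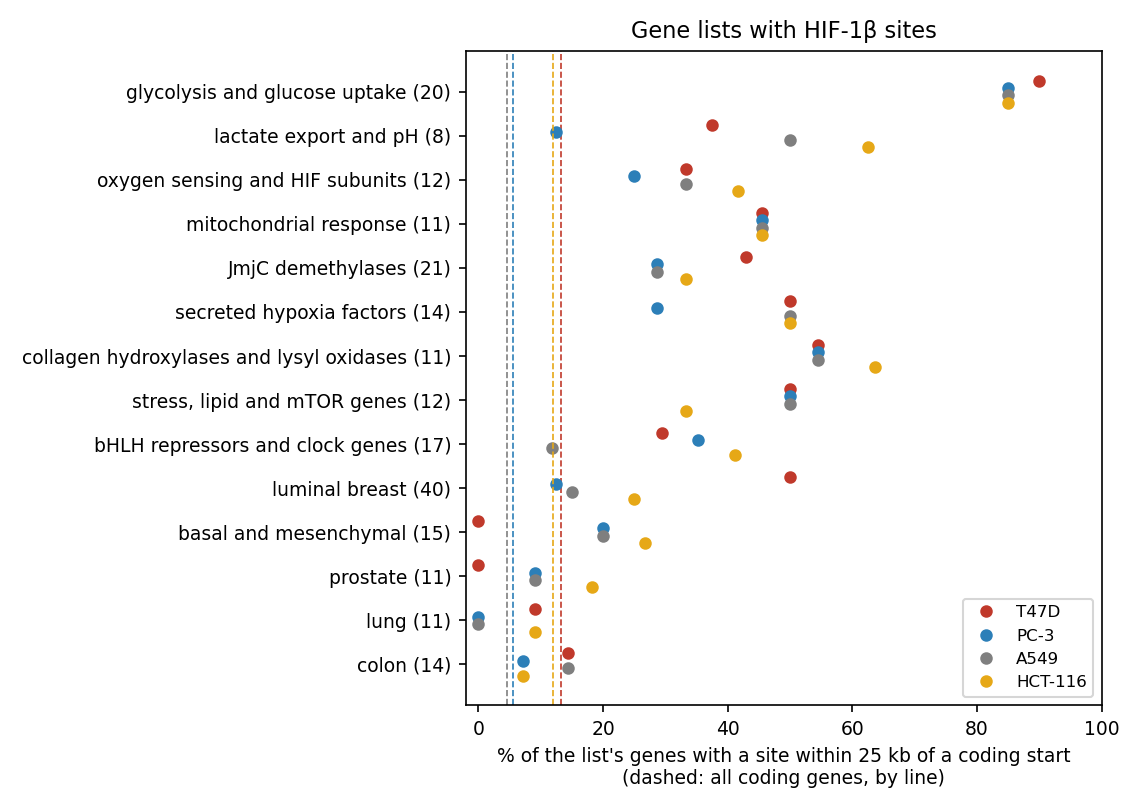
Points give the percentage of the genes of each list with a site within 25 kb of a coding start, by line, with the number of genes in brackets. Dashed lines give the same for all coding genes. Glycolysis lies between 85% and 90% in the 4 lines, and the luminal breast list reaches 50% in T47D cells against 12.5% to 25% in the others.

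Luminal breast genes were the list on which T47D cells stood furthest from the other lines. Of 40 genes, 20 had a T47D site within 25 kb of a start, against 5 in PC-3, 6 in A549 and 10 in HCT-116 cells, where KRT19 counts through other sites than that of T47D. By library, 23 and 23 genes had a peak within 25 kb in the T47D replicates. PC-3 had 5 and 8, A549 10 and 6, and HCT-116 13 and 11, so the T47D libraries did not overlap the other 6. The share of all coding genes near a peak also differed, at 18.8% and 17.8% in the T47D replicates. It was 5.86% and 13.4% in PC-3, 7.11% and 5.42% in A549, and 23.9% and 12.7% in HCT-116. With the 1042 highest-scoring peaks of each library, a comparison added after the data were seen, the T47D replicates still had 11 and 12 genes and the other 6 libraries between 4 and 6. The percentage of all coding genes near these peaks was then 6.96 and 6.99 for T47D and 4.36 to 7.34 for the others. Within 2 kb of a start, the counts by line were 8, 1, 0 and 4.

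A T47D site and no site of another line was found at 10 luminal genes, 8 of which had no peak within 25 kb in the other 6 libraries. Over all T47D sites, 56.8% overlapped no site of another line and 38.8% no peak of another library. Those shares count overlap and not a distance of 25 kb, and the matching share of all coding genes was not computed. The count of 10 is therefore no measure of luminal specificity. Of the 10 genes, TRPS1, a GATA-type repressor of luminal cells, had the strongest site at a start (rank 541, 178.35 and 160.51). TFF3, a secreted trefoil peptide, followed with a site at its start (rank 629, 172.56 and 135.7). XBP1, a factor of the unfolded protein response, ranked 745, and FOXA1, a pioneer factor for the oestrogen receptor, 863 with a site 9317 bp from its start. GATA3, which specifies luminal cells, ranked 1747 with a site 1066 bp from its start (79.22 and 59.63), and ERBB2, the receptor HER2, 1966 with a site 19689 bp away. The site counted for ERBB2 lay within 2 kb of the start of another coding gene. PRLR, the prolactin receptor, and GRHL2, an epithelial factor, ranked 1708 and 1187. At TFAP2A and MLPH, peaks of single replicates lay nearby in PC-3, A549 and HCT-116 cells.

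The site closest to the start of each luminal gene was mostly weak. The median rank of these closest sites was 985.5, near that of all coding genes with a site (1042). Among the 206 highest were 2 of these 20 closest sites. These were KRT19 and RARA, the retinoic acid receptor α (rank 62, 768.29 and 1206.58), which also had sites in the other lines. KRT8, a further luminal keratin whose closest site ranked 1425, also had a site of rank 83 (688.29 and 847.9) at 24508 bp. GREB1, an oestrogen-regulated gene, had a T47D site at its start (rank 559, 191.98 and 147.15) and otherwise only in HCT-116 cells. The remaining 20 luminal genes had no T47D site within 25 kb, among them ESR1 and PGR, the oestrogen and progesterone receptors, and TFF1, SPDEF, CDH1 and EPCAM. Binding does not measure expression, and these markers show where sites lay and not whether the gene was active.

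None of the 15 basal and mesenchymal genes had a T47D site, while 3 had a site in PC-3, 3 in A549 and 4 in HCT-116 cells. T47D replicate 2 had a peak near 1 of them. The neighbouring genes CAV1 and CAV2 shared a site in PC-3 (rank 372) and in A549 cells (rank 691). The list is short beside the 13.3% of all coding genes with a T47D site, and the contrast was not tested. No prostate gene of 11 had a T47D site, against 1, 1 and 2 in the other lines. Of 11 lung genes T47D had a site at 1, SFTPD (rank 848), and of 14 colon genes at 2, VIL1 (rank 887) and ASCL2 (rank 1656). The site counted for VIL1 was 18697 bp from its start and within 2 kb of the start of another coding gene. The lung and colon counts lie near the 13.3% of all coding genes.

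Larger gene families stayed mostly near the background. A T47D site lay within 25 kb of a start in 69 of 509 ZNF zinc finger genes (13.6%), 34 of 340 solute carriers (10%), 9 of 82 oxidative phosphorylation genes (11%), 11 of 78 mitochondrial ribosomal proteins (14.1%) and 6 of 39 proteasome genes (15.4%). Cytosolic ribosomal protein genes had one in 18 of 86 cases (20.9%), but 7 within 2 kb. Of the 18, 12 had no site of another line within 25 kb, a share not computed for all coding genes. By library this list did not set T47D apart, since HCT-116 replicate 2 had a peak near as many of its genes as T47D replicate 1 (33 each). Replication-dependent histone genes, which lie in clusters and can share a site, had 15 of 63 (23.8%) and 4 within 2 kb. Keratin genes had 8 of 55 (14.5%), and olfactory receptor genes, which most tissues silence, 2 of 381 (0.525%).

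T47D sites lay at promoters more often than not. A coding transcription start was within 2 kb of 1255 of the 2065 sites (60.8%, 95% exact binomial interval 58.6 to 62.9%, which covers counting error only), and 1142 sites covered one. Over these 1142 the centre of the site lay at a median of -10 bp from the start (quartiles -122.8 and 81 bp, negative values upstream). Starts of at least 2 coding genes lay within 2 kb of 193 of the promoter sites (15.4%). The nearest coding genes numbered 1791 in all. Among the 807 distal sites of the main chromosomes, 521 had their centre in intergenic sequence, 259 in an intron, 12 in a coding exon and 15 in a UTR. The median distance of distal sites to a coding start was 33041 bp, and 156 of them (19.3%) lay within 2 kb of the start of a long non-coding RNA.

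By library, 60.7% and 59% of the T47D peaks lay within 2 kb of a coding start. The other libraries had 41.7% and 38% (PC-3), 30.9% and 31.6% (A549) and 65% and 63% (HCT-116). T47D thus lay between HCT-116 and PC-3, above 4 and below 2 of the other 6 libraries. The mean difference between T47D and the other 6 was 14.8 percentage points (exact permutation test over the 28 ways to choose 2 of 8 libraries, two-sided, p = 0.393). Averaged over the lines, the difference between replicates was smaller than under any other pairing of the 8 libraries. The exact permutation test over all pairings gave a one-sided p = 0.0095, the smallest this design allows. Single pairs across lines could still be closer than some replicates.

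**Figure D3:**
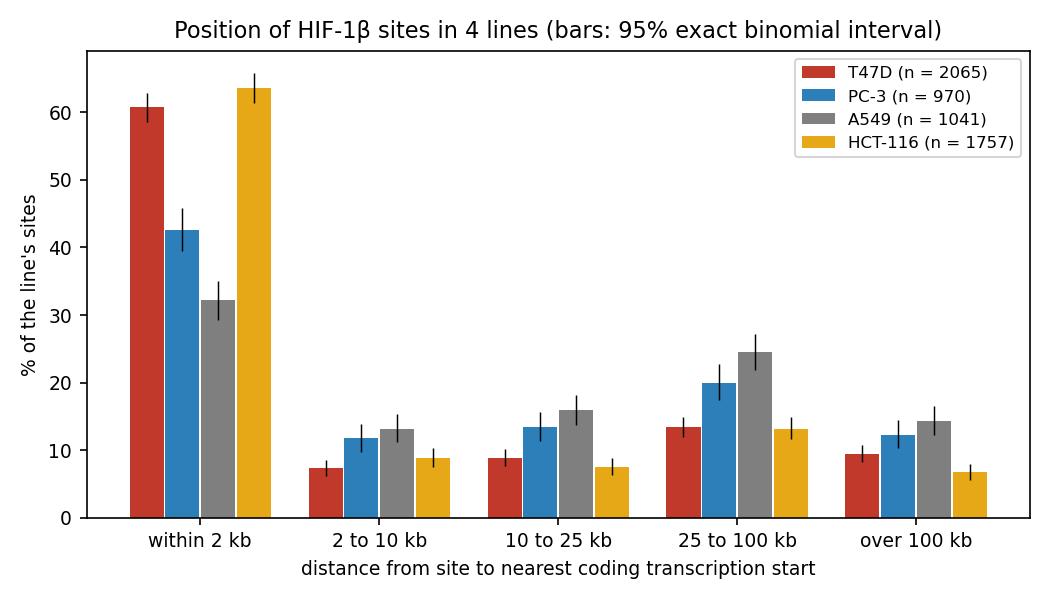
Bars give the percentage of each line's sites in 5 classes of distance to the nearest coding transcription start, with 95% exact binomial intervals. T47D and HCT-116 have 60.8% and 63.6% of sites within 2 kb, against 42.6% in PC-3 and 32.2% in A549.

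The core ACGTG or GCGTG, read on both strands, was found in the central 200 bp of 1325 T47D sites (64.2%, interval 62.1 to 66.2%). Windows of the same length 5 kb away on either side held it in 23.3% and the 200 bp around the start of all coding genes in 43.2%. Over the whole site the share was 96.2%, but windows as wide as the site starting 5 kb from its edges reached 80.3%. Promoter sites held the core in their central 200 bp in 69.4% of cases and distal sites in 56.3% (interval 52.8 to 59.7%). Distal sites of the other lines held it more often, in 70.7% (PC-3), 70.1% (A549) and 72.6% (HCT-116).

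The base before the core differed between the 2 classes of site. TACGTG was found in 17.7% of distal and 11.9% of promoter T47D sites, against 1.49% and 1.75% of the sequences 5 kb away. CGCGTG was found in 5.08% of distal and 18% of promoter sites, against 0.805% and 1.35%. For promoter sites these flanks are a low background, since they held the core in 24.7% of cases, against 43.2% at all coding starts. The core with its preceding base was not counted at all coding starts, so base composition may enter the difference between the classes. GGCGTG, in 9.67% of distal sites, was about as frequent 5 kb away (8.86%), but promoter sites held it in 22.6% of cases, against 12.1%. TGCGTG was found in 12% of distal and 15.1% of promoter sites, against 2.73% and 2.55%. Among the 206 highest-ranked sites 22.8% held TACGTG and 21.8% GACGTG, and among the 206 lowest 11.7% and 15.5%. The palindrome CACGTG contains ACGTG on both strands and is the site of other bHLH factors such as MYC and USF. It was found in 6.82% of distal and 8.37% of promoter sites, against 3.04% and 2.43% of the sequences 5 kb away. Among the 206 highest-ranked sites 6.8% held it, and among the 206 lowest 9.22%.

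Some T47D sites held no copy of the core. The 5 of highest rank without it over their whole length were nearest to DHX35 (rank 109), BOD1 (365), POU2AF3 (428), CLIC6 (520) and RAB5B (638). DHX35 encodes an RNA helicase, and the scores of its site, 888 bp from the start, lay far apart (394.13 and 1121.55). Of the 5, none overlapped a site of another line, and only that at RAB5B overlapped a peak of another library, HCT-116 replicate 2.

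Sharing with other lines fell steeply with rank, while the promoter share did not. Of the 206 highest-ranked T47D sites, 82.5% overlapped a site of another line and 58.3% had one in all 4 lines. In the lowest 207 these shares were 17.4% and 0.483%. The promoter share ranged from 53.6% to 63.6% over 10 classes of rank with no trend, and the core in the central 200 bp from 69.9% in the highest class to 60.4% in the lowest. The median width of sites was 1750 bp in the highest and 1245 bp in the lowest class, so that strong sites also had more sequence in which to overlap.

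**Figure D4:**
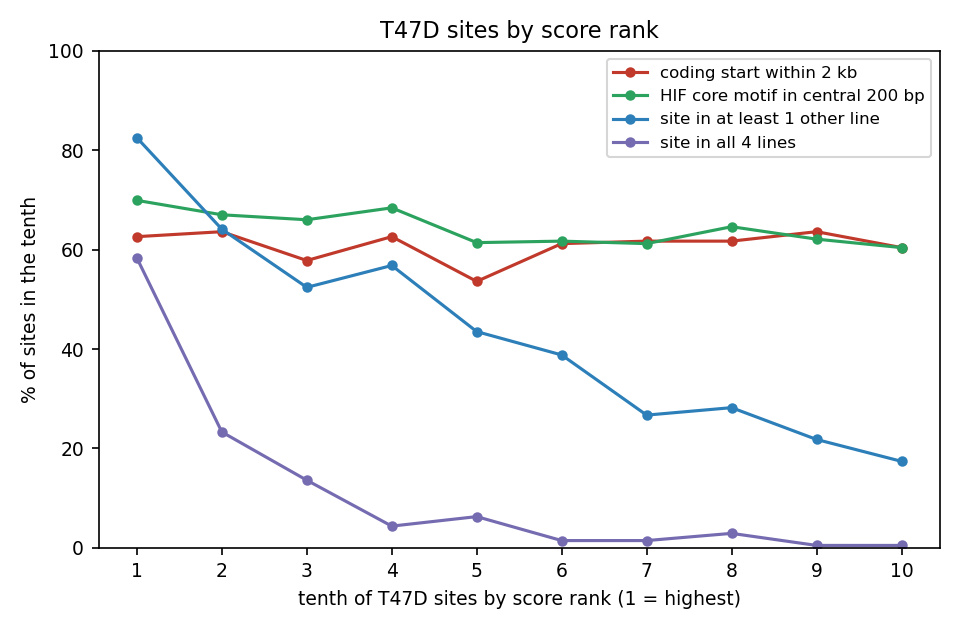
T47D sites of the main chromosomes are divided by score rank into 10 classes of 206 or 207 sites (x axis, 1 the highest), and lines give the percentage of each class with the named feature. Sharing with another line falls from 82.5% to 17.4%, while the promoter share stays between 53.6% and 63.6%.

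Over all T47D sites, 1173 (56.8%, interval 54.6 to 59%) overlapped no site of another line and 232 (11.2%) were sites in all 4. At distal positions 71.9% were unshared and at promoters 47.1%. HCT-116 cells, with the longest list of the other lines, shared 782 T47D sites, which is 37.9% of the T47D sites and 44.5% of the HCT-116 sites. PC-3 cells shared 429 (20.8% of T47D and 44.2% of PC-3 sites) and A549 cells 362 (17.5% and 34.8%). At promoters 49.8% of the T47D sites overlapped an HCT-116 site, against 19.3% of distal T47D sites. Seen from the other lines the order was different: 55.5% of HCT-116 promoter sites overlapped a T47D site, against 72.6% of PC-3 and 69% of A549 promoter sites. The single-replicate peaks of the other lines reduced the unshared sites to 801 (38.8%), 300 at promoters and 500 at distal positions of the main chromosomes.

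The strongest of these 801 sites at a promoter was at PIK3R1, the regulatory subunit of phosphoinositide 3-kinase, with scores of 1202.18 and 1391.27 (rank 33). Its region, chr5:67583372-67585311, covered a coding start with its centre 181 bp upstream and held 6 copies of the core. It stood well apart from the others at promoters: DHX35 followed at rank 109 and MKNK2, a kinase of the translation factor eIF4E, at 140 (392.95 and 601.75). FAM178B (rank 163), a further FAM174B start (170) and ZNF470, a zinc finger gene (208), had scores between 338.96 and 456.

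Apart from PIK3R1, the strongest distal sites without a peak elsewhere ranked above the promoter sites. ZNF395, a transcription factor gene, had an intronic site of rank 36 (1054.78 and 1374.68). The gene was not bound in T47D cells alone. A T47D site at its start ranked 97, and PC-3, A549 and HCT-116 cells had sites within 25 kb of a start (ranks 816, 558 and 276). Another site nearest to it, of rank 43, was a site in every line. BMP4, a ligand of the bone morphogenetic protein pathway, was nearest to a site of rank 37 (1280.95 and 1194.86), 12572 bp from its start and 10428 bp past its end (chr14:54404726-54406026). It held 2 copies of the core, both in its central 200 bp. XAB2, a splicing and repair protein, had a site of rank 46 centred in a coding exon (1109.83 and 1110.3). STMND1, a stathmin family gene, was 115203 bp from a site of rank 50, and FOS, a subunit of AP-1, 23029 bp from a site of rank 53 (811.48 and 1307.74). SHANK2, a scaffold gene, had an intronic site of rank 66 (818.87 and 943.56). The nearest gene is named by distance alone and need not be the one regulated.

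Besides the HIF core, 3 of the 18 other motifs searched in distal peaks had T47D shares outside the range of the other 6 libraries: those of AP-1, of GRHL and of the oestrogen receptor. Motifs were counted on both strands in the central 400 bp of peaks over 2 kb from a coding start, of which T47D had 1198 and 1190 and the others 606 to 1792. TGANTCA, the site of AP-1 (FOS and JUN dimers), was found in 14.8% and 14.5% of T47D peaks, in 43.2% and 48.3% of PC-3, 44.1% and 43.4% of A549, and 40.9% and 41.4% of HCT-116 peaks. The T47D shares were close to the 11.7% found 5 kb away and lay below all other libraries by 28.9 percentage points on average (exact permutation test over 28 splits, two-sided, p = 0.036, the smallest it allows). Among promoter peaks, the T47D libraries had a mean share of AP-1 sites of 4.97%, against 6.82% to 17.4% in the other 6 (p = 0.071, the same exact test). Other motifs also lay outside the range there. Among them were the HIF core (85.9% and 89.1% against 90.4% to 94.3%) and CCAAT (33.8% and 34.5% against 27.9% to 31.7%). Both had p = 0.036 in the same exact test. After Benjamini-Hochberg adjustment over the 19 motifs the smallest p at promoters was 0.226. All coding promoters held TGANTCA in 6.05% of cases.

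The HIF core itself was found in 69.9% and 73.3% of distal T47D peaks and in 75.6% to 87% of those of the other libraries, and 37.1% of the sequences 5 kb away held it (difference 10.8 points lower, p = 0.036, the same exact test). AACCNGTT, the site of grainyhead factors such as GRHL2, was found in 5.51% and 4.12% of T47D peaks and in 1.42% to 3.63% of the others (p = 0.036, exact test, 2.07% of flanks). TGTTTAC, the FOXA site, was found in 8.76% and 9.75% against 4.15% to 10.8% (p = 0.607, exact test), and AGATAA, the GATA site, in 17.4% and 19.7% against 14.5% to 22.1% (p = 0.893, exact test). A single receptor arm, AGGTCA, was found in 30.7% and 28.9% against 26.7% to 30.8% (p = 0.429, exact test). The FOXA site was more frequent than in T47D flanks (4.9%), and the GATA site was not (21.6%). The 19 motifs were tested together, and after Benjamini-Hochberg adjustment the smallest p was 0.17 in these exact tests, for the core, AP-1, GRHL and the oestrogen response element. With 606 distal peaks of highest score from every library, these 4 motifs differed in the same direction and the T47D shares again lay outside the range of the others.

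**Figure D5:**
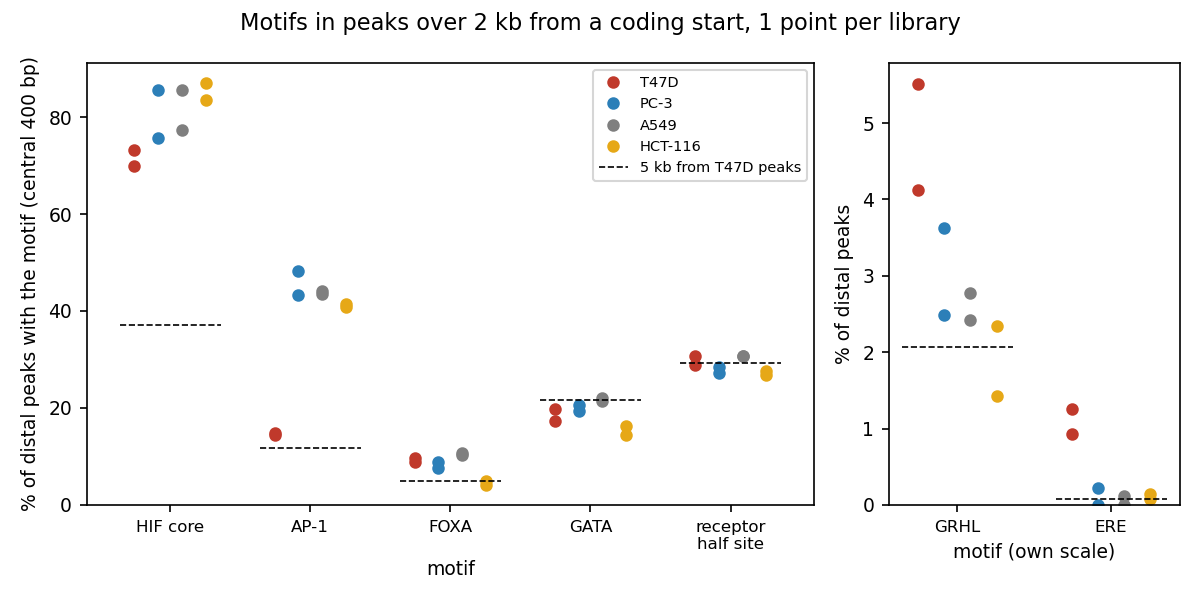
Each point is a library and gives the percentage of its distal peaks with the motif in the central 400 bp, with the right panel on its own scale. Dashed lines give the percentage in sequences 5 kb from T47D peaks. T47D libraries lie at 14.8% and 14.5% for AP-1, below the range of 40.9% to 48.3% of the other 6, and above all others for GRHL and the oestrogen response element (ERE).

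The oestrogen response element is the palindrome that the oestrogen receptor binds, searched as GGTCA and TGACC 3 bases apart. It was found in 15 of 1198 distal peaks of T47D replicate 1 (1.25%) and 11 of 1190 of replicate 2 (0.924%). The other 6 libraries had between 0 and 4 such peaks (at most 0.223%), and 0.0838% of T47D flanks held it (p = 0.036, exact permutation test over 28 splits). Over their whole length, 22 T47D sites held the element, 16 of them distal and 17 with no peak in any other library, against 38.8% of all T47D sites and 62% of distal ones. The HIF core was in 21 of the 22, much as in the 96.2% of all T47D sites. The numbers are small, and oestrogen receptor binding was not measured here. The 2 strongest of these sites, and a weaker one beside a gene of prolactin signalling, are shown as 61 bases on the plus strand of GRCh37, with the arms of the palindrome in capitals.
MED13L distal, chr12:116828361-116828421, intergenic: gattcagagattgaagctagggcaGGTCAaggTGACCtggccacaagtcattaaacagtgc
ST8SIA6 distal, chr10:17487870-17487930, intron: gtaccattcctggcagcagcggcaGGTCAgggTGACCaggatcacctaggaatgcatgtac
CISH downstream, chr3:50642673-50642733, intergenic: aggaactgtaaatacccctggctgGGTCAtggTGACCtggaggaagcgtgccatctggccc
MED13L, a Mediator kinase module subunit, was nearest to a site of rank 100 (598.76 and 668.93), 111848 bp away, with 3 copies of the HIF core in its central 200 bp and a single other peak, in PC-3 replicate 2. ST8SIA6, a sialyltransferase, had a site of rank 110 (467.61 and 782.96). CISH, a feedback inhibitor of cytokine and prolactin signalling, had a site of rank 737 (172.08 and 111.89), 322 bp past its end. These genes were chosen after their values were seen.

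Several genes were nearest to many T47D sites. EDN1, the vasoconstrictor endothelin, was nearest to 9, between 1604 and 201760 bp from its start. The strongest, 22566 bp away, ranked 61 (914.01 and 1056.84) and overlapped an A549 site, and another, 45194 bp away, ranked 113 (526.37 and 644.3) with no peak in any other library. A549 cells had 2 sites nearest to EDN1, and PC-3 and HCT-116 cells 0. PTP4A2, a phosphatase, was nearest to 6 T47D sites, 5 of them with no peak elsewhere, and to no site of another line. MYC, TRPS1 and IRF2BP2, a corepressor, were nearest to 6 each. PC-3, A549 and HCT-116 cells had 2, 3 and 0 sites nearest to MYC, 1, 0 and 0 to TRPS1, and 1, 1 and 4 to IRF2BP2. The strongest T47D sites were at rank 86 for MYC (607.63 and 879.48), 409 for TRPS1 and 169 for IRF2BP2.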

How the data were processed

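HIF-1β ChIP-seq peaks of 8 libraries were used. Per the labels, the submitters' processing notes name Trim Galore 0.3.3, BWA 0.7.5a-r405, SAMtools 0.1.19, Picard 1.106, bedtools 2.17.0 and MACS, and the build GRCh37 (hg19). The authors deposited 1 peak list per library with a score for each peak, whose unit no header states. The lists hold no reads, so the depth is unknown, and scores were ranked only within a line. The study's methods call peaks with both T-PIC and MACS, and the peak names in the lists are those of MACS, so the T-PIC step could not be checked.

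Peaks of replicates that overlapped by 1 bp were merged, and regions with peaks of both were sites. Transcription starts were those of all coding transcripts of GENCODE 44 lifted to GRCh37, and motifs and sequences came from that genome (Python 3.11.15, NumPy 2.4.6, SciPy 1.17.1, pysam 0.24.0, Matplotlib 3.10.9). A promoter window was 2 kb, measured from the edge of the site, and genes without a plain symbol were not used as nearest gene. Tests were exact permutation tests over libraries, with Benjamini-Hochberg adjustment over 19 motifs, and the overlap, motif and permutation steps were tested on simulated data. The members and gene lists were chosen with earlier results of these data known.

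Genes were named by rule: the 12 sites of highest rank, the 6 highest promoter and 6 highest distal sites with no peak in another library, the 5 highest sites without the core, the 5 genes nearest to the most sites, and members of the lists. Sites just inside or outside the overlap rule, those with an oestrogen response element and those in runs were named outside it. Alternatives were other windows, overlaps, peak subsets, libraries left out, a replicate block, equal numbers of peaks and canonical starts. The last of these, and equal numbers of peaks for the gene lists, were added after the data were seen. Results on 2 items are not reported here.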

Additional observations from a re-analysis of the deposited data

How the results depend on the processing

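The number of T47D sites rose to 3890 with a peak of either replicate and fell to 1095 with the higher-scoring 50% of each list, and it was 2910 to 3061 with either replicate alone. The share at promoters was 57.9% with a window of 500 bp, 63.9% with 5 kb and 54.9% with canonical starts, an alternative added after the data were seen. The share with the HIF core moved with the window, to 43.1% in 100 bp, 83% in 400 bp and 96.2% over the site, was 59.6% with a peak of either replicate and 60% to 62.2% with either replicate alone. The unshared share was 38.8% against single-replicate peaks of other lines, 43% with the higher-scoring 50%, and 64.3% to 66.9% with either replicate alone. The difference in promoter share was 16.7 points (exact permutation p = 0.375) with a replicate block on the numbers that T47D shares with other lines, which nothing in the labels says pair the libraries. It moved from 14.8 to 7.92 points without A549 (p = 0.533) and to 24.3 without HCT-116 (p = 0.0667), and the exact p reached 0.714 under its other alternatives. Coding genes near a site numbered 1469 at 2 kb, 5685 at 100 kb, 4533 with a peak of either replicate, 1418 with the higher-scoring 50% and 1046 with equal numbers of peaks, and luminal genes 8 at 2 kb, 12 with the higher-scoring 50% and 11 with equal numbers of peaks. The GATA motif difference turned from -0.478 points to 0.584 in 200 bp, 3.57 over whole peaks and to between -1.67 and 0.715 without either T47D replicate. No adjusted motif p passed under any alternative, and with 1 T47D library the smallest possible exact p is 0.143. The causes were not tested.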

Other observations

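T47D sites were partly clustered. Sites under 50 kb apart formed 1750 runs, of which 1523 were single sites, and the longer runs held the other 539. The longest run, named like the others after its values were seen, had 7 sites over 96967 bp of chromosome 1 near SPOCD1 and PTP4A2, and none of the 7 was a site in another line. A run of 6 lay near S100P, a calcium-binding protein of epithelial tumours, on chromosome 4, also with no site of another line. Runs of 5 lay at EDN1, near BOD1, near BCAS4 and PARD6B on chromosome 20, and near CTPS2 and S100G on chromosome X. At BOD1 and at CTPS2 all 5 were sites in no other line. GATA3 was the nearest coding gene to 3 T47D sites at 979735 to 1146759 bp from its start, ranked 896, 1349 and 1800, beside the site at its promoter.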
